A study of Mus musculus with 24 samples.

Results

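The 39 genes of the mouse HoxA, HoxB, HoxC and HoxD clusters were described in the uterus of young mice with the gene for the chromatin protein CTCF intact or deleted, after vehicle and 6 h after progesterone. They were the rows of the deposited expression table whose symbol is Hox followed by a cluster letter from a to d and a paralog number, 39 of 22943 genes in all. HoxA holds 11 of them, HoxB 10, HoxC 9 and HoxD 9. A total of 30 passed the filter on low values, at least 1 RPKM in at least 4 libraries, and were tested. RPKM is a read count scaled for gene length and library size, and here it carries a batch correction made by the submitters. The other 9 were below the filter, among them Hoxb13, Hoxc13 and Hoxd13, and those named are given as levels only, except where a fit with no filter is named.

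RNA of whole uteri from female C57bl/6 mice aged 21 days was sequenced in 24 libraries. The floxed group (Ctcf-f/f) carried loxP-flanked Ctcf alleles and no Cre, and came from Cre-negative littermates. The knockout group (PgreCre+;Ctcf-f/f, also written PgrCre+) carried the same alleles and Cre driven by the progesterone receptor gene Pgr, which acts in the cells that express Pgr. Mice of each genotype received 0.5 mg progesterone in 0.05 ml sesame oil, or the oil alone as vehicle, under the skin 6 h before collection. The vehicle groups hold 8 libraries for each genotype and the progesterone groups 4 for each. Since only the knockout mice carried Cre, the loss of Ctcf and the Cre allele cannot be told apart. Nothing in the labels says that each library is a separate animal, so the p-values measure the spread between libraries, which may be partly technical.

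Hox genes encode homeodomain transcription factors that give cells their position along the body axis. Within a cluster the genes lie in the order in which they are switched on, from the low-numbered genes at the 3′ end to the high-numbered genes at the 5′ end, and genes of the same number in different clusters are paralogs. CTCF binds between neighbouring Hox genes and holds borders between active and silent chromatin in these clusters. In the developing female tract the 5′ HoxA genes are laid out along its length, with Hoxa9 in the oviduct, Hoxa10 in the uterus, Hoxa11 in the uterus and cervix and Hoxa13 in the cervix and upper vagina. Hoxa10 and Hoxa11 are needed in the uterine stroma for implantation, and progesterone is known to raise Hoxa10.

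The genotype labels were checked first on Ctcf itself, which was 22.99 to 30.6 RPKM in the floxed libraries and 10.1 to 13.1 in the knockout libraries after vehicle, with no overlap, and 25.1 to 27.5 against 9.04 to 10.9 after progesterone. Smooth muscle markers (sums of 1138 to 2097 RPKM) and stromal markers (776 to 2207) were high in all libraries, as uterine tissue has them. The 5 ovary markers summed to 3.56 to 8.74 RPKM. Of these Fshr and Oosp1 had means below 0.1 in every group, and the 1 that passed the filter was not called between genotypes. Pgr, the target of progesterone and the gene that drives Cre, was lower in knockouts after vehicle (-0.77 ± 0.14 on the log2 scale, adjusted p = 0.000235). The labels place the libraries in 2 batches, of which the mixed batch held 4 libraries of every group and the other held 4 of each vehicle group, so the progesterone groups come from 1 batch. Depth, estimated from the steps that single reads leave in low genes, had a median of 72.5 M reads in the mixed batch and 49.7 M in the other (M for mega), with a lowest library of 29.9 M. Leukocyte markers were higher in knockout uteri for 4 of 4 tested genes under either treatment, with a summed level of 37.1 to 56.4 RPKM in floxed and 77.0 to 123 in knockout vehicle libraries, and 41.9 to 64.0 against 64.1 to 141 after progesterone. After vehicle 5 of 6 epithelial markers were lower, with sums of 344 to 544 against 233 to 354 RPKM, and after progesterone 1 (Epcam) was higher. Of 8 stromal markers only Pdgfra was called between genotypes, lower under both treatments. Skeletal muscle markers were lower after vehicle for 2 of 3 tested, with sums of 49.1 to 109.5 RPKM in floxed and 15.9 to 55.2 in knockout libraries. Oviduct, squamous and adipose markers had no call between genotypes. In bulk tissue fewer cells of a type and less RNA per cell cannot be told apart, and the part of these cell types in the Hox differences was not tested.

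Among the members on which the results turn, Hoxb9, called higher in knockouts under both treatments, had no RefSeq promoter window. The others are Hoxa10 and Hoxa11, called lower in knockouts (Hoxa10 after vehicle only) and higher after progesterone. Hoxd3, Hoxd8 and Hoxd10, higher in knockouts, complete the set shown. The promoter sequences of these 5 from RefSeq (GRCm38.p6) are printed 5′ to 3′ in the direction of the gene. Each is the 250 bases before the RefSeq start. Capitals mark matches on either strand to AGGNGGC, a core of the CTCF motif, and to TGTTCT, the core of the element that the progesterone receptor binds.
Hoxa10, chr6:52240855-52241104, minus strand: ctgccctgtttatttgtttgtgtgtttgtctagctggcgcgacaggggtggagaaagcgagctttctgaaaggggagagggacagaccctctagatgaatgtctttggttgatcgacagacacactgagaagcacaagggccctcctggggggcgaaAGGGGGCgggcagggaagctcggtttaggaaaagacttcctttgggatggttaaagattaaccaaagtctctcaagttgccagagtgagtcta
Hoxa11, chr6:52245811-52246060, minus strand: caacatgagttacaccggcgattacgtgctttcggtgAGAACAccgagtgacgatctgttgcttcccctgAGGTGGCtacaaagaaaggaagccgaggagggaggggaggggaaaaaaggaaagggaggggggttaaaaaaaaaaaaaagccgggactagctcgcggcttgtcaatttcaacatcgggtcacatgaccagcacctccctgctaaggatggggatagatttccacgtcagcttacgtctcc
Hoxd3, chr2:74711743-74711992, plus strand: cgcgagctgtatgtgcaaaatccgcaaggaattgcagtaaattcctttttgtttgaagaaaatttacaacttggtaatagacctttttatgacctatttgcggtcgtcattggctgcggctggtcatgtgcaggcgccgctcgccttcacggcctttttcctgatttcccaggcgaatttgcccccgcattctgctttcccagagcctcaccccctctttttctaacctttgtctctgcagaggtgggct
Hoxd8, chr2:74704365-74704614, plus strand: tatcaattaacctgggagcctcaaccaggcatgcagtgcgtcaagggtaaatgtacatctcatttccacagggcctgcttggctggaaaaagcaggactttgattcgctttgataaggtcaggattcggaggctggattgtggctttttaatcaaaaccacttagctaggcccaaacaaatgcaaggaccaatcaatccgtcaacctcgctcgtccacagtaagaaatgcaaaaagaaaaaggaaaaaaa
Hoxd10, chr2:74691641-74691890, plus strand: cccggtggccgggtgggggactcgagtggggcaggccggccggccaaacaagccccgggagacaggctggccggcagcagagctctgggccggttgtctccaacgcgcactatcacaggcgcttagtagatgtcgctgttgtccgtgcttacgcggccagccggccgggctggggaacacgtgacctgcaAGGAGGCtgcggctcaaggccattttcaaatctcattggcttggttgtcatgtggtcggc
AGGNGGC lay at base -93 before the Hoxa10 start shown, at -180 before Hoxa11 and at -60 before Hoxd10, and in neither the Hoxd3 nor the Hoxd8 window. TGTTCT lay only in the Hoxa11 window among these 5, as AGAACA at base -213. RefSeq holds a second Hoxa10 start inside the gene, whose window (chr6:52234940-52235189) had no match to either motif. Such short motifs are common: AGGNGGC stood in 7 of the 22 members that had a RefSeq window (31.8%) and in 25.0% of all 32851 windows of that length, and TGTTCT in 2 of 22 (9.1%), the other being Hoxa9, and in 16.1% of all windows. A match is a description of the letters and not a measured binding site.

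In floxed uteri after vehicle, Hox RNA was concentrated in the 5′ part of HoxA and in HoxD (map of mean level by cluster and paralog number). Hoxa10 was highest with 67.1 ± 8.31 RPKM (SD, n = 8) and Hoxa11 came next with 57.3 ± 9.92, and the ranges of the pair overlapped. Hoxd10 followed with 38.6 ± 2.35 and Hoxd9 with 34.2 ± 1.58, again with overlapping ranges. Below them came Hoxd4 with 25.9 ± 3.04, then Hoxd8, Hoxb6 and Hoxa9 with 20.4 ± 1.17, 19.9 ± 2.24 and 19.8 ± 4.40, whose means lay within an SD of each other. The remaining HoxB members tested lay between 3.32 RPKM for Hoxb9 and 13.01 for Hoxb7. The 7 tested HoxC members were low, from 0.855 RPKM for Hoxc9 to 5.14 for Hoxc6.

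**Figure D1:**
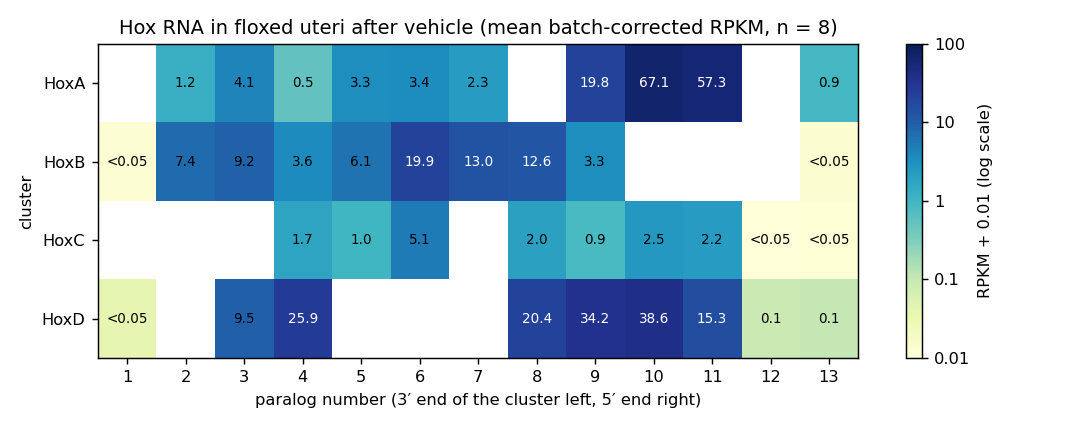
Mean batch-corrected RPKM of the members in the 8 floxed vehicle libraries, by cluster (rows) and paralog number (columns), with colour on a log scale and white where no gene is shown. The highest cells are Hoxa10 (67.1) and Hoxa11 (57.3), then Hoxd10 (38.6) and Hoxd9 (34.2), while Hoxb1, Hoxb13, Hoxc12, Hoxc13, Hoxd1, Hoxd12 and Hoxd13 lie near 0.

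The level dropped sharply at the 5′ end of HoxD and HoxA. Next to Hoxd11 with 15.3 ± 1.10 RPKM, Hoxd12 had 0.0786 and Hoxd13 0.0940 RPKM in the same libraries, and Hoxd13 stayed between 0.0104 and 0.213 RPKM in all 24 libraries. In HoxA, Hoxa13 had 0.889 ± 0.714 RPKM beside Hoxa11 with 57.3. Hoxb1, Hoxb13, Hoxc12 and Hoxc13 reached at most 0.0152 RPKM in any library. At the 3′ end of HoxD, Hoxd1 had 0.0282 RPKM beside Hoxd3 with 9.52. In the 3′ part of HoxA, Hoxa4 had 0.529 RPKM, less than Hoxa2 with 1.20 and Hoxa3 with 4.10. Across all 4 groups the highest library value of Hoxd12 was 0.127 RPKM and that of Hoxd13 0.213.

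In knockout uteri most tested HoxD genes and Hoxb9 were higher, and Hoxa11 and Hoxa10 were lower. After vehicle 5 of 30 tested members were higher in knockouts (Hoxd3, Hoxb9, Hoxd8, Hoxd10 and Hoxd9) and 4 were lower (Hoxa11, Hoxa10, Hoxc11 and Hoxb6) in limma with Benjamini-Hochberg adjustment at 0.05. Of all 14284 tested genes 13.1% were higher and 11.5% lower, so the number of Hox genes called was near the background. By cluster, 4 of the 6 tested HoxD members were higher and none lower, with a median log2 fold change of 0.28. Among the 9 tested HoxA members 2 were lower and none higher, with a median of -0.07, and the median over all genes was -0.01. HoxB gave 1 higher and 1 lower of 8, and HoxC 1 lower of 7.

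After progesterone 7 members were higher in knockouts (Hoxd8, Hoxd10, Hoxd3, Hoxb9, Hoxd9, Hoxd11 and Hoxb8) and only Hoxa11 was lower, against 12.3% and 7.06% of all tested genes. In HoxD 5 of 6 were higher, with a median log2 fold change of 0.55 against 0.03 over all genes. In limma no tested HoxC member was called in this comparison, and 0 had an unadjusted p under 0.05. The vehicle and progesterone comparisons share no library, and their spread was estimated together.

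**Figure D2:**
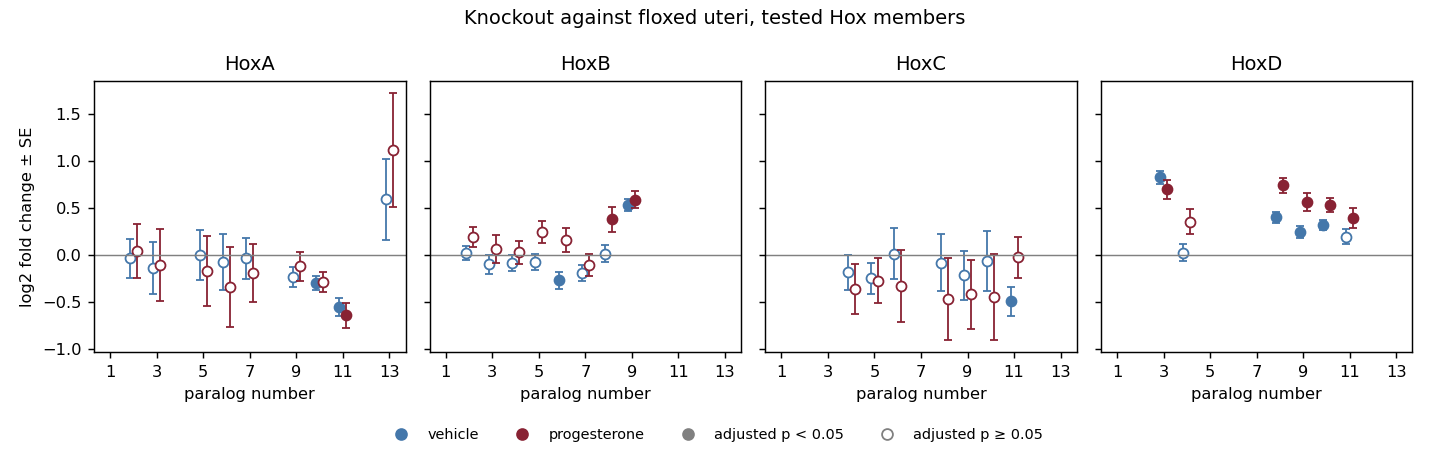
Log2 fold change of knockout against floxed uteri with its standard error for the 30 tested members, by cluster and paralog number, after vehicle (blue) and after progesterone (red), with filled points for an adjusted p under 0.05. Hoxd3 and Hoxd8 to Hoxd11 lie above 0 in both, Hoxa10 and Hoxa11 lie below 0 in both, and Hoxa13 has the widest bars.

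Hoxd3, a paralog of Hoxa3 and Hoxb3, had the largest genotype difference among the members called after vehicle, and came after Hoxd8 and before the others in the progesterone comparison. It was 8.02 to 10.5 RPKM (median 9.64) in floxed and 14.8 to 20.7 (median 16.9) in knockout libraries after vehicle, with no overlap. The log2 fold change was 0.83 ± 0.07 (SE, adjusted p = 6.37e-09), and 0.76 and 0.90 within the mixed batch and the vehicle-only batch. After progesterone the floxed libraries gave 9.34, 9.42, 9.61 and 11.96 RPKM and the knockout libraries 14.4, 16.8, 16.8 and 18.8, again apart, with a log2 fold change of 0.70 ± 0.10 (adjusted p = 2.17e-05). Hoxd4, its neighbour, did not pass in either comparison (0.02 ± 0.09, adjusted p = 0.884, and 0.36 ± 0.13, adjusted p = 0.0582). The ratio of Hoxd3 to Hoxd4 was 0.371 ± 0.0386 in floxed and 0.661 ± 0.0507 in knockout vehicle libraries. In the GENCODE M21 annotation (GRCm38) 62.3% of the exonic bases of Hoxd3 (chr2:74711927-74748442) and 52.3% of those of Hoxd4 (chr2:74711929-74729160) overlap other genes on the same strand, namely each other and the gene model Gm28230, so how reads were divided between them is uncertain.

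The noncoding gene Haglr (chr2:74748422-74762896, opposite strand), which starts beside Hoxd1 and extends to Hoxd3, was higher too. It had 0.791 to 1.17 RPKM in floxed and 1.91 to 2.86 in knockout vehicle libraries, a log2 fold change of 0.94 ± 0.09 (adjusted p = 2.03e-08), and 1.00 ± 0.12 after progesterone (adjusted p = 3e-06). Hoxd1, on the other side of Haglr and below the filter, lay between -0.0429 and 0.0855 RPKM in floxed and 0.131 and 0.503 in knockout vehicle libraries. In progesterone libraries Hoxd1 was 0.0429 to 0.0653 against 0.135 to 0.182. Floxed progesterone 2, 7 and 9 all held 0.042895, and floxed vehicle 1a held -0.042895. Such a repeated value may stand for no reads after the batch correction, so the floxed values lie at or near the floor. The libraries of the 2 genotypes did not overlap under either treatment, at a level under 1 RPKM. With no filter on low values the log2 fold change of Hoxd1 in limma was 0.54 ± 0.07 after vehicle (adjusted p = 6.33e-06) and 0.28 ± 0.10 after progesterone (adjusted p = 0.0575). So near the floor the size of this change is not usable.

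Hoxd8, which lies in the middle of the cluster, was 18.6 to 22.3 RPKM (median 20.2) in floxed and 23.9 to 30.4 (median 27.8) in knockout vehicle libraries. No knockout library reached down into the floxed range, and the log2 fold change was 0.40 ± 0.06 (adjusted p = 1.48e-05), with 0.41 and 0.40 within the batches. After progesterone the values were 16.4, 17.5, 17.9 and 18.6 RPKM in floxed and 26.8, 27.7, 29.9 and 35.4 in knockout libraries, a log2 fold change of 0.74 ± 0.08 (adjusted p = 9.89e-07).

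Hoxd9, Hoxd10 and Hoxd11 are the HoxD members of the paralog groups that pattern the reproductive tract and limbs. Hoxd10 was 34.0 to 41.8 RPKM (median 39.1) in floxed and 46.1 to 50.5 (median 47.5) in knockout vehicle libraries, with no overlap and a log2 fold change of 0.32 ± 0.05 (adjusted p = 5.88e-05). With progesterone the values were 34.9, 35.7, 41.0 and 41.1 against 49.5, 55.4, 58.2 and 58.9 RPKM, a log2 fold change of 0.53 ± 0.07 (adjusted p = 1.41e-05). Within the batches the vehicle difference of Hoxd10 was 0.32 and 0.31, with adjusted p = 0.0073 in the mixed one and 0.0687 in the vehicle-only one of 4 libraries a group.

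Hoxd9 was 31.3 to 36.0 RPKM (median 34.4) in floxed and 38.2 to 45.5 (median 40.3) in knockout vehicle libraries, which did not overlap. Its log2 fold change was 0.25 ± 0.07 (adjusted p = 0.00909), but it passed in neither batch alone (0.29, adjusted p = 0.0789, and 0.20, adjusted p = 0.186). Progesterone libraries gave 24.6, 25.7, 27.7 and 37.0 against 37.3, 43.1, 43.9 and 45.5 RPKM, a log2 fold change of 0.57 ± 0.10 (adjusted p = 0.000158).

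Hoxd11 did not pass after vehicle, with 13.999 to 17.6 RPKM in floxed and 14.9 to 19.8 in knockout libraries (0.20 ± 0.08, adjusted p = 0.0647). In progesterone libraries it was 12.6, 13.3, 13.3 and 14.6 against 13.3, 18.9, 19.4 and 20.9 RPKM, and was called (0.40 ± 0.11, adjusted p = 0.0119), with 1 knockout library inside the floxed range. That library was knockout progesterone 8, which also had the highest squamous epithelium markers of its group. Without knockout progesterone 5, the highest library, the adjusted p was 0.0556, and the call was also lost when only the groups compared were fitted.

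Hoxb9 was the HoxB gene with the largest difference between genotypes, and it lies next to the long gap that separates Hoxb13 from the rest of its cluster. It was 2.96 to 3.67 RPKM (median 3.26) in floxed and 4.29 to 5.57 (median 5.11) in knockout vehicle libraries, with no overlap and a log2 fold change of 0.53 ± 0.07 (adjusted p = 1.77e-06). Within the batches the difference was 0.46 and 0.60. After progesterone it was 3.08, 3.54, 3.60 and 3.76 against 4.96, 5.44, 5.54 and 6.17 RPKM, a log2 fold change of 0.59 ± 0.09 (adjusted p = 7.73e-05). Its neighbour Hoxb8 showed 0.02 ± 0.09 after vehicle (adjusted p = 0.931) and was called after progesterone (0.38 ± 0.13, adjusted p = 0.0455), with 9.30, 11.8, 12.4 and 12.9 against 14.2, 15.2, 15.4 and 15.8 RPKM. That call ended, with an adjusted p of up to 0.173, when floxed progesterone 2 or 9 or any of knockout progesterone 4, 5, 6 and 8 was left out. It also ended with quantile normalization, with no filter on low values and without the 5 libraries that stood out for oviduct or squamous markers.

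Hoxa11, which in the mouse is needed for stromal growth and implantation, had the largest genotype difference of the HoxA members called. It was 45.3 to 72.6 RPKM (median 59.4) in floxed and 32.4 to 42.7 (median 39.0) in knockout vehicle libraries, all 8 knockout libraries lying below all 8 floxed ones. The log2 fold change was -0.55 ± 0.09 (adjusted p = 9.08e-05), with -0.50 in the mixed batch (adjusted p = 0.00304) and -0.61 in the vehicle-only batch (adjusted p = 0.0616). After progesterone it was 97.0, 99.1, 109 and 125 RPKM in floxed and 62.4, 67.2, 71.0 and 73.6 in knockout libraries, which is -0.64 ± 0.13 on the log2 scale (adjusted p = 0.00119). The antisense gene Hoxa11os overlaps part of the exonic bases of Hoxa11 (chr6:52242106-52245810), and with no strand setting known their reads may not be separated. Hoxa11os itself gave -0.33 ± 0.14 (adjusted p = 0.0911) and -0.30 ± 0.20 (adjusted p = 0.308).

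Hoxa10 (chr6:52231197-52240854), the best-known Hox regulator of uterine receptivity, was 59.7 to 85.2 RPKM (median 64.9) in floxed and 48.8 to 60.1 (median 54.3) in knockout vehicle libraries. The ranges overlapped slightly, and the log2 fold change was -0.30 ± 0.07 (adjusted p = 0.00435). It was -0.16 in the mixed batch (adjusted p = 0.226) and -0.43 in the vehicle-only batch (adjusted p = 0.0675), so it passed in neither alone. After progesterone it was 87.5, 94.3, 102 and 115 against 73.2, 81.7, 83.1 and 88.3 RPKM and did not pass (-0.29 ± 0.10, adjusted p = 0.0563). Hoxa9, the oviduct member of the series, did not pass either (-0.23 ± 0.11, adjusted p = 0.129, and -0.12 ± 0.15, adjusted p = 0.649).

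**Figure D3:**
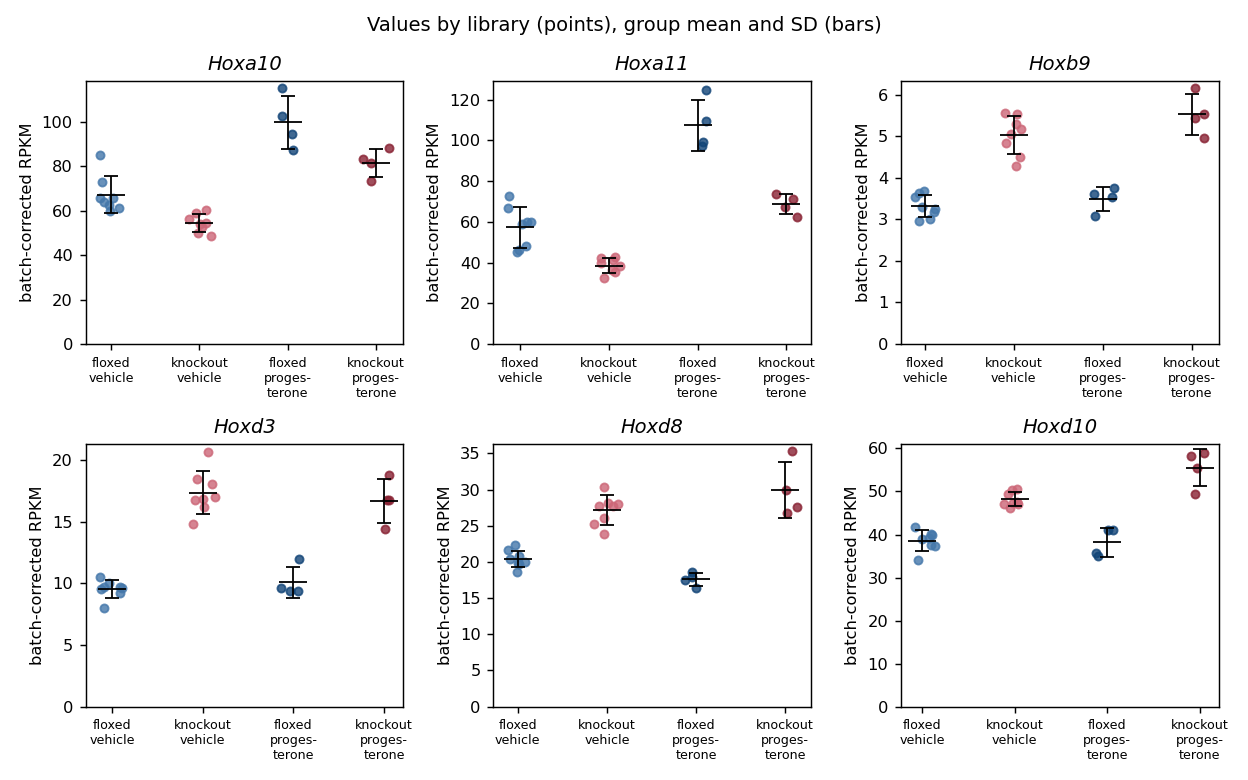
Batch-corrected RPKM of 6 members in every library (points) with the group mean and SD (bars), in floxed and knockout uteri after vehicle (n = 8 each) and progesterone (n = 4 each). Knockout libraries lie above all floxed ones of the same treatment for Hoxb9, Hoxd3, Hoxd8 and Hoxd10 and below them for Hoxa11, and progesterone libraries of Hoxa10 and Hoxa11 lie above the vehicle libraries of their genotype.

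Hoxc11 and Hoxb6 were the other members called lower after vehicle. Hoxc11 was 1.09 to 2.98 RPKM (median 2.15) in floxed and 0.933 to 2.28 (median 1.37) in knockout libraries, which overlapped, with a log2 fold change of -0.49 ± 0.15 (adjusted p = 0.0209). That call ended in the vehicle-only batch and without the 5 libraries that stood out for oviduct or squamous markers. Hoxb6 was 16.3 to 23.5 (median 19.7) against 12.8 to 19.7 RPKM (median 16.8), with a log2 fold change of -0.27 ± 0.09 (adjusted p = 0.0325). Within the batches Hoxb6 gave -0.08 and -0.46, and its call ended, with an adjusted p of up to 0.077, without any of floxed vehicle 1a, 4 and 7 or knockout vehicle 5, 9 and 11a. Neither gene passed after progesterone (Hoxc11 -0.02 ± 0.22, adjusted p = 0.957, and Hoxb6 0.16 ± 0.13, adjusted p = 0.427).

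Added over each cluster, the RPKM moved in opposite directions in HoxA and HoxD while the total stayed near the same level. HoxA summed to 138 to 207 RPKM in floxed and 109 to 137 in knockout vehicle libraries. The means were 160 and 125.6 RPKM, of which Hoxa10 and Hoxa11 together held 124.4 and 92.93. Most of the HoxA shift thus lay in these 2 genes, the only HoxA members called of 9 tested. HoxD summed to 137 to 156 and 169 to 189 RPKM in the same libraries, with no overlap, and HoxB to 65.5 to 88.2 and 61.3 to 81.2. Over all 39 members the sum was 395 ± 27.3 RPKM in floxed and 388 ± 18.1 in knockout vehicle libraries (SD, n = 8), and 461 ± 40.5 and 466 ± 22.2 after progesterone (n = 4). HoxA made up 40.5% of the Hox sum in floxed and 32.4% in knockout vehicle libraries, and HoxD 36.6% and 45.9%. After progesterone HoxA made up 53.9% and 40.3%, and HoxD 28.1% and 40.8%.

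**Figure D4:**
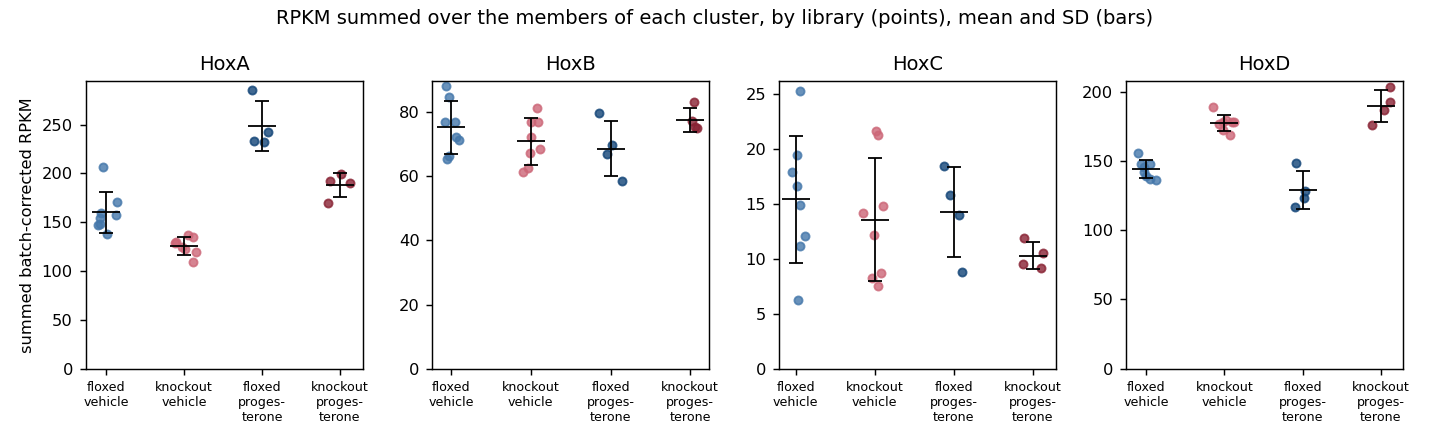
RPKM summed over the members of each cluster in every library (points), with the group mean and SD (bars); each panel has its own axis from 0. HoxD sums of knockout libraries lie above all floxed ones (169 to 189 against 137 to 156 after vehicle), while HoxB and HoxC sums overlap between genotypes.

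The balance between paralogs shifted accordingly. Hoxa10 stood at 1.497 to 2.14 times the level of Hoxd10 in floxed and 0.970 to 1.28 times in knockout vehicle libraries, and at a mean of 2.61 and 1.47 times after progesterone. Hoxa11 stood at 3.78 ± 0.812 times the level of Hoxd11 in floxed and 2.20 ± 0.253 in knockout vehicle libraries, and at 7.99 ± 0.941 and 3.93 ± 1.07 after progesterone. These ratios restate the values above and carry no test of their own.

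Hoxa11 and Hoxa10 were the members called higher 6 h after progesterone, in both genotypes. In floxed uteri 2 of 30 members were higher (Hoxa11 and Hoxa10) and 2 lower (Hoxb5 and Hoxd9), against 7.84% and 15.1% of all tested genes. In knockout uteri Hoxa11 and Hoxa10 were again higher and none was lower in limma, against 4.00% and 4.66% of all tested genes. HoxC had no call in either genotype, and 0 of its 7 tested members had an unadjusted p under 0.05. The progesterone responses of each genotype share their vehicle and progesterone libraries with the genotype comparisons above.

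Hoxa11 went from a median of 59.4 RPKM after vehicle to 104 after progesterone in floxed uteri, or 0.90 ± 0.12 on the log2 scale (adjusted p = 1.32e-05). In knockout uteri it went from 39.0 to 69.1, a log2 fold change of 0.81 ± 0.12 (adjusted p = 0.000204). Hoxa10 went from 64.9 to 98.4 RPKM in floxed uteri (0.56 ± 0.10, adjusted p = 0.000225) and from 54.3 to 82.4 in knockout uteri (0.57 ± 0.10, adjusted p = 0.000661). In both genotypes every progesterone library lay above every vehicle library for both genes, and both were called under every alternative processing and without any 1 library. Knockout uteri after progesterone thus held Hoxa11 at 62.4 to 73.6 RPKM, a range that overlaps the 45.3 to 72.6 of floxed uteri after vehicle.

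Hoxa9, next in line in the cluster, showed 0.28 ± 0.14 (adjusted p = 0.167) in floxed and 0.40 ± 0.14 (adjusted p = 0.09) in knockout uteri, and did not pass. All 4 knockout progesterone libraries of Hoxa9 (19.8, 21.3, 23.2 and 24.9 RPKM) nevertheless lay above all 8 vehicle ones (12.5 to 19.7), with an unadjusted p of 0.0112 in limma. Hoxd10 in knockout uteri showed 0.20 ± 0.07 with an unadjusted p of 0.00767 (adjusted p = 0.0722), and no member was lower there at an unadjusted p under 0.05. Hoxa13 showed -0.73 ± 0.57 (adjusted p = 0.383) and -0.21 ± 0.57 (adjusted p = 0.876). The Hoxb5 call in floxed uteri (-0.37 ± 0.11, adjusted p = 0.0198) ended without floxed progesterone 2 or 9 (adjusted p of up to 0.0758), with quantile normalization and when only the groups compared were fitted. Hoxb5 had 4.00, 4.35, 4.83 and 5.25 RPKM after progesterone and 4.99 to 7.87 after vehicle, which overlap. The Hoxd9 call (-0.26 ± 0.09, adjusted p = 0.0382) ended without any of floxed progesterone 2, 7 and 9 or floxed vehicle 2, 3, 4 and 7 (adjusted p of up to 0.161). It was also lost in the mixed batch alone, on the values without log2, when only the groups compared were fitted and without the same 5 libraries.

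**Figure D5:**
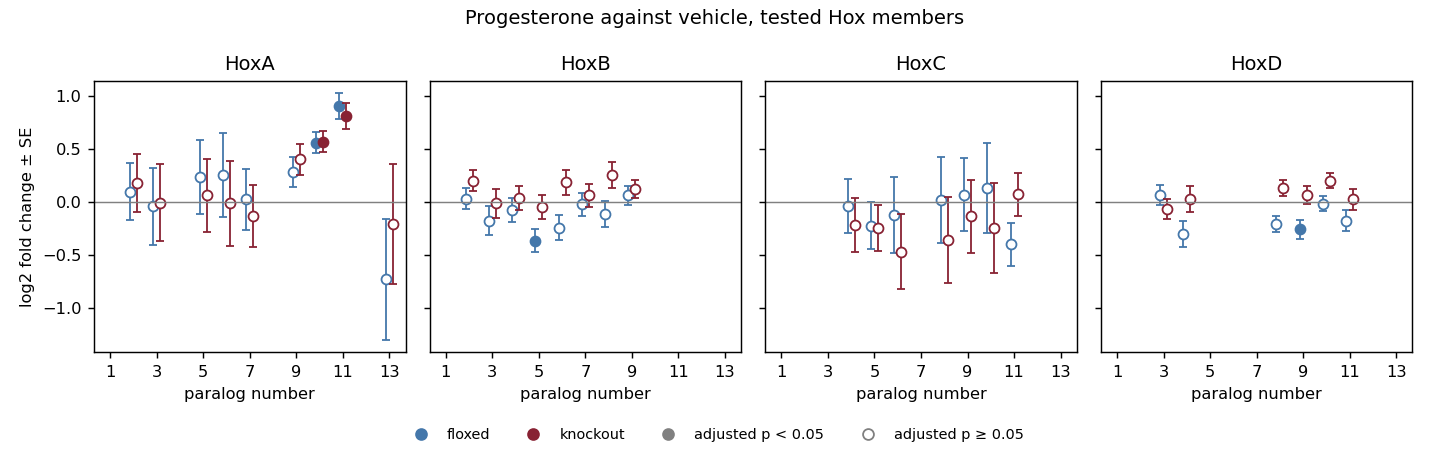
Log2 fold change of progesterone against vehicle with its standard error for the 30 tested members, by cluster and paralog number, in floxed (blue) and knockout (red) uteri, with filled points for an adjusted p under 0.05. Hoxa10 and Hoxa11 are filled above 0 in both genotypes, and HoxC has no filled point.

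Whether the response to progesterone differed between genotypes was tested with an interaction term. In limma 0 of 30 members passed, against 2.49% of all tested genes. At an unadjusted p under 0.05 there were 7 members (Hoxb5, Hoxb6, Hoxb8, Hoxd4, Hoxd8, Hoxd9 and Hoxd10), against 14.2% of all tested genes. All 7 had a positive difference, a change after progesterone that was higher in knockout than in floxed uteri. The 14.2% covers either direction, and the share of all tested genes with a positive difference was not counted. The median difference over all tested genes was 0.0255. Whether the shared sign is particular to these members was thus not tested. Hoxd8 came nearest, with 0.34 ± 0.10 (adjusted p = 0.0789). It moved by -0.21 ± 0.08 in floxed uteri (adjusted p = 0.0542), where all 4 progesterone libraries lay below all 8 vehicle ones, and by 0.13 ± 0.08 in knockout uteri (adjusted p = 0.34). The differences for Hoxa10 (0.01 ± 0.13, adjusted p = 0.987) and Hoxa11 (-0.09 ± 0.16, adjusted p = 0.876) did not pass.

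The HoxC members and Hoxa2 to Hoxa7 varied widely between libraries of the floxed groups and of the knockout vehicle group. The SD was 27.3 to 77.7% of the mean for the 7 tested HoxC members in floxed vehicle libraries, and 4.61 to 11.7% for the 6 tested HoxD members. In knockout vehicle libraries the median was 46.1% for HoxC and 8.43% for HoxD. In knockout progesterone libraries the values were closer, 6.59 to 27.1% for HoxC and 7.74 to 18.3% for HoxD. Floxed vehicle 12 was the lowest of its 8 libraries for 6 of 6 members from Hoxa2 to Hoxa7 and for 6 of 7 tested HoxC members, and floxed progesterone 9 was the lowest of 4 for 6 of 6 and 6 of 7. In the knockout progesterone group the sums did not go together, and library 4 was highest for Hoxa2 to Hoxa7 (16.2 RPKM) and lowest for HoxC (9.14). The standard error of the genotype difference after vehicle was accordingly 0.15 (Hoxc11) to 0.32 (Hoxc10) for HoxC and 0.05 (Hoxd10) to 0.09 (Hoxd4) for HoxD, on the log2 scale.

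Markers of the neighbouring organs varied between the same libraries. Within the mixed batch, the library with the highest oviduct markers of its group had the highest Hoxa2 to Hoxa7 sum of its group in 3 of 4 groups. Floxed vehicle 3 had an oviduct sum of 243 RPKM and a Hoxa2 to Hoxa7 sum of 19.3, against 11.2 to 13.5 in the other mixed-batch libraries of the group. Knockout vehicle 12 had 355 and 23.4, against 9.83 to 14.8, and floxed progesterone 7 had 529 and 24.2, against 9.85 to 16.4. HoxC sums were highest in the same 3 libraries. In the fourth group, knockout progesterone 6 had the highest oviduct sum (141) and also the highest HoxC sum (11.91). In the vehicle-only batch this order did not recur: floxed vehicle 10 and knockout vehicle 13, highest for oviduct markers there, ranked below others of their group for Hoxa2 to Hoxa7, though floxed vehicle 10 had the highest HoxC sum. Adipose markers followed HoxC there: in both vehicle groups of that batch the 4 libraries stood in the same order for the adipose and the HoxC sum. Floxed vehicle 10 was highest (639 and 25.3 RPKM) and floxed vehicle 12 lowest (2.33 and 6.24), and knockout vehicle 5 was highest (721 and 21.3) and knockout vehicle 11a lowest (25.5 and 7.49). In the mixed batch the orders differed, and knockout vehicle 12 had the highest HoxC sum of its group with the lowest adipose sum (102).

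Hoxa13, the cervical and vaginal member, and the squamous epithelium markers were highest in the same library in some groups and not in others. Knockout vehicle 9 had a squamous sum of 106 RPKM and Hoxa13 at 2.40, and knockout progesterone 8 had 43.6 and 3.25. Floxed vehicle 2 had 20.65 and 1.583. Each was the highest for both in its group of 4 of the mixed batch. In the vehicle-only batch floxed vehicle 12, with a squamous sum of 23.8, had Hoxa13 at 1.71 against -0.0471 to 0.862 in the other 3. Knockout vehicle 11a had the highest Hoxa13 of its group (3.301) with a squamous sum of 16.1, below the 26.9 of knockout vehicle 5. Floxed progesterone 2 had the highest Hoxa13 of its group (1.21, next 0.183) with a squamous sum of 1.42, the third of 4. Over the genotypes Hoxa13 did not pass (0.59 ± 0.43, adjusted p = 0.353, and 1.12 ± 0.61, adjusted p = 0.215). How much tissue of these organs each library held was not tested as a source of the Hox differences. Without the 5 libraries that stood out for oviduct or squamous markers, the calls after vehicle were 6 higher and 3 lower, and after progesterone 6 higher and 1 lower.

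Hox proteins bind DNA with partners of the TALE homeodomain family, Pbx, Meis and Pknox. Of 9 tested, 1 was higher (Pbx3) and 2 lower (Pknox2 and Meis3) in knockouts after vehicle, against 13.1% and 11.5% of all tested genes. After progesterone 1 was higher (Pbx2, 0.22 ± 0.06, adjusted p = 0.0159) and 2 lower, against 12.3% and 7.06%, with Pknox2 at -1.46 ± 0.10 (adjusted p = 1.9e-09). Pknox2 rose from a median of 10.8 to 27.1 RPKM with progesterone in floxed uteri (1.23 ± 0.10, adjusted p = 1.02e-08). In knockout uteri it stayed at 8.83 and 9.63, and the difference in response passed (-1.10 ± 0.13, adjusted p = 2.32e-05). Meis2 fell with progesterone in floxed (-0.34 ± 0.08, adjusted p = 0.00575) and knockout uteri (-0.38 ± 0.08, adjusted p = 0.00639).

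Of the noncoding genes inside the clusters or up to 41.9 kb away, 7 of the 15 in the table were tested. Only Haglr was called between genotypes, under either treatment. Hoxb5os fell with progesterone in floxed uteri (-0.37 ± 0.12, adjusted p = 0.0323). Among 19 tested genes beside the clusters, 1 was higher and 1 lower in knockouts after vehicle, and 2 were higher (Skap2 and Skap1) and 2 lower (Jazf1 and Cbx5) after progesterone. All genes gave 13.1% higher and 11.5% lower after vehicle and 12.3% and 7.06% after progesterone, so the numbers called were near or below the background share. Skap2, an adaptor protein gene 143 kb from HoxA, was higher in both (0.36 ± 0.10, adjusted p = 0.0142, and 0.55 ± 0.15, adjusted p = 0.0105). Jazf1, which encodes a zinc finger protein and lies 508 kb from HoxA on the side of Hoxa13, rose with progesterone from a median of 6.99 to 24.3 RPKM in floxed uteri (1.78 ± 0.16, adjusted p = 5.92e-08). It rose less in knockout uteri (0.79 ± 0.16, adjusted p = 0.003), with a tested difference of -0.99 ± 0.21 (adjusted p = 0.01). Next to HoxD, Lnpk, 88.9 kb away, was lower after vehicle (-0.19 ± 0.07, adjusted p = 0.0417), and the other tested neighbours of HoxD were not called between genotypes.

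The Polycomb and Trithorax proteins keep Hox genes silent or active. Of 18 of their genes tested 1 was higher and 2 were lower in knockouts after vehicle, both below the shares of all tested genes (13.1% and 11.5%). Rnf2 was higher (0.19 ± 0.05, adjusted p = 0.00787) and Jarid2 lower (-0.25 ± 0.07, adjusted p = 0.0106). In the progesterone comparison limma called 0 of 18, and 1 (Bmi1) had an unadjusted p under 0.05. Of 6 genes that have been linked to Hoxa10 in the uterus 5 were tested. In knockouts 1 was lower after vehicle and 2 after progesterone, against 11.5% and 7.06% of all tested genes, and none was higher. Ptger4, a prostaglandin receptor gene, fell from a median of 17.7 RPKM in floxed to 6.02 in knockout vehicle libraries (-1.50 ± 0.09, adjusted p = 3.56e-11), and was also lower after progesterone (-0.76 ± 0.12, adjusted p = 0.000126). Its genotype gap was thus smaller after progesterone, and this difference in response (0.74) passed, against 2.49% of all tested genes. Ptger3 passed after progesterone (-0.66 ± 0.20, adjusted p = 0.0209) and not after vehicle (-0.24 ± 0.14, adjusted p = 0.231). Emx2, Fkbp4 and Itgb3 were not called between genotypes. The genes of the ParaHox group that were in the table were all below the filter.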

How the data were processed

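The data are 1 table of gene-level values for 24 mouse uterus libraries. The authors deposited RPKM after a batch correction, with 6.66% of values below 0, so the deposited unit is a score, neither plain RPKM nor counts. Each gene's vehicle mean was equal in both batches (relative tolerance 0.0001) for 13688 of 13688 genes with a mean above 1. Per the submitters' processing notes, the tools include cutadapt 2.7, TopHat and Partek, and the build is mm10. Per the labels' protocols, Trizol extraction was followed by Zymo clean-up with DNase and by TruSeq libraries. How reads were counted, with which strand setting, and how the batch correction worked is not stated in the sources at hand. The effect of that correction on ratios, which matters most near 0, was not tested.

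Values below 0 (3 among the tested members) were set to 0. Log2(value + 0.5) was fitted over all libraries with limma 3.58.1 in R 4.3.3 (trended, robust eBayes), with 4 groups, a batch term and 19 residual degrees of freedom. Fold changes on that scale understate the change of low genes. Tested genes (14284) reached 1 RPKM in 4 or more libraries, and their two-sided p-values were adjusted over all of them by Benjamini-Hochberg (threshold 0.05), after a trial on simulated data. Group values are means with SD, or ranges, of the deposited values. The planned test was kept although the values proved to be corrected.

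The members, gene lists and tests were chosen with earlier results of these data known. The counts and sums cover all 39 members, and some genes of the lists and clusters are not reported here. Members called in a comparison and the reproductive tract members are given in full, and of every other list up to 4 called genes by adjusted p. The library patterns of Hoxa2 to Hoxa7, HoxC and Hoxa13 were picked after their values were seen. Alternatives were other pseudocounts, filters and scalings, single batches, subsets of samples, library weights, a replicate block and each library left out. Numbers used in both batches (1a with 1b, 11a with 11b) did not give near-identical libraries, and each was kept as a sample. Gene coordinates are from GENCODE M21 and promoters from RefSeq, both on GRCm38. Depth is an estimate and no counting interval is given.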

Additional observations from a re-analysis of the deposited data

Results flagged for a closer look

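Among 120 groups of libraries (30 tested members in 4 groups) 6 held a library far from the others of its group, and chance alone flags about 1 in 20 groups. Floxed progesterone 1 stood high for Hoxd3, at 11.96 RPKM where the next library had 9.608, and for Hoxd4, at 27.41 where the next had 19.68. These genes share exons, so the pair is not independent. Hoxa9 was 30.31 RPKM in floxed vehicle 1a (next 20), Hoxa13 1.214 in floxed progesterone 2 (next 0.1827), Hoxb7 14.61 in knockout progesterone 8 (next 11.31) and Hoxc8 5.359 in floxed vehicle 10 (next 2.772). No genotype or progesterone call named in the report for Hoxd3 was lost when any 1 library was left out.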

How the results depend on the processing

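None of 23 called fold changes changed sign. Uncalled pairs were followed only for members called in some comparison and for the tested reproductive tract members. Among those uncalled pairs, 20 values in 13 gene and comparison pairs changed sign, none of them called. After vehicle these were Hoxb5 (0.04071 in the mixed batch, 0.02677 with library weights, 0.03705 with the replicate block) and Hoxb8 (-0.1204 in the vehicle-only batch). After progesterone they were Hoxa9 (0.09534 with weights, 0.09187 with the block) and Hoxc11 (0.1212 with weights, 0.06061 without the 5 libraries with oviduct or squamous markers). For progesterone in floxed uteri they were Hoxb8 (0.02523, weights) and Hoxd10 (0.03038, without the 5 libraries), and in knockout uteri Hoxb5 (0.002938, quantile normalization) and Hoxd3 (0.07962, weights). For the difference in response they were Hoxa10 (-5.546 RPKM without log2, -0.1241 in the mixed batch, -0.01333 without the 5 libraries), Hoxa9 (-0.03912, mixed batch), Hoxa11 (0.08024, block), Hoxb9 (-4.94e-05, quantile normalization, and -0.001945, block) and Hoxd3 (0.04206, weights). The cause was not tested. Other tested members were not followed over the alternatives, and some of them changed sign between batches too. After vehicle Hoxa3 gave -0.14 in the main fit and 0.05 in the mixed batch, and Hoxa6 gave -0.07 and 0.13. Of 23 calls, 10 held under every alternative that gave a value: Hoxd3 and Hoxd8 in both genotype comparisons, Hoxb9 after vehicle, Hoxd10 after progesterone, and Hoxa10 and Hoxa11 for progesterone in both genotypes. Of the 47 uncalled gene and comparison pairs that were followed, 16 were called under at least 1 alternative. Of 9 members called after vehicle, 4 were called in the vehicle-only batch alone (4 libraries a group, so a smaller fit). The 4 calls for progesterone in floxed uteri became 2 when only the groups compared were fitted and 9 with library weights, a fit that stopped before convergence and called 43.9% of all genes. Library weights also gave 7 calls for progesterone in knockout uteri and 6 for the difference in response, where quantile normalization gave 1 (Hoxd8, 0.33, adjusted p = 0.0197). Leaving out 1 library gave 8 to 10 calls after vehicle, 6 to 9 after progesterone, 2 to 6 and 2 to 3 for progesterone in floxed and knockout uteri, and 0 to 1 for the difference in response. For floxed uteri the 2 came without floxed progesterone 2 or 9 and the 6 without floxed vehicle 1a; the 3 for knockout uteri came without knockout progesterone 6 or floxed vehicle 1a or 12; the 1 for the difference without floxed progesterone 1 or knockout progesterone 6. Deviations of 11 same-numbered pairs of libraries correlated from -0.342 to 0.544, which cannot settle whether replicate numbers pair them. With the replicate block the calls were 6, 3, 2, 2 and 0 in the order just given. The genotype calls that it ended were Hoxa10, Hoxb6 and Hoxd9 after vehicle. After progesterone they were Hoxa11 (adjusted p = 0.105), Hoxb9 (0.0909), Hoxd9 (0.085), Hoxd11 and Hoxb8 in limma. Members near 0 have no usable fold change at this depth.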
